A study of Mus musculus with 8 samples.

Results

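Inhibitory checkpoint receptors were examined in FoxP3+ regulatory T cells (Treg) of the bone marrow (BM-Treg) and of the spleen (SP-Treg). The set holds 10 genes, Ctla4, Lag3, Tigit, Havcr2, Cd96, Cd226, Cd160, Btla, Cd274 and Lair1, chosen by name from the 38215 genes of the deposited tables. Of these genes, 13397 passed the filter on low counts, and all 10 receptors were among them. FoxP3+ cells were sorted from naïve B6.FoxP3-GFP mice (genotype C57Bl/6 per the labels) aged 12 weeks, whose FoxP3-expressing cells are marked by GFP. RNA was sequenced from 4 BM-Treg and 4 SP-Treg libraries, and no animal had received a treatment or a transplant. BM-Treg replicates 1 to 3 were labelled female and batch 1, whereas the fourth BM-Treg library and every SP-Treg library were labelled male and batch 3. Batch and sex therefore cannot be told apart, and only 1 BM-Treg library shares both with the spleen. The titles of the SP-Treg libraries carry number ranges that overlap. Their meaning is not given in the sources used here, so that p-values measure the spread between libraries that may share animals.

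Checkpoint receptors are surface proteins that dampen T cell activation when they meet a ligand on another cell. CTLA-4 competes with the costimulatory receptor CD28 for CD80 and CD86, and Treg use it to strip these ligands from antigen presenting cells. TIGIT and CD96 bind CD155 (encoded by Pvr), for which they compete with CD226, the activating receptor of that family. BTLA and CD160 bind HVEM (Tnfrsf14), LAG-3 binds MHC class II, and TIM-3 (Havcr2) binds several ligands that include galectin-9. Cd274 encodes PD-L1, a ligand of the B7 family that also sits on T cells, and LAIR-1 is an inhibitory receptor for collagen. The comparison asks how the marrow and the spleen differ in the supply of transcripts for these brakes on Treg.

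The depth was 12427136 to 21921252 expected counts per library. Treg and CD4 T cell markers were high throughout, with a summed level of 6754 to 8089 CPM (counts scaled to a common library size) in BM-Treg and of 7470 to 7891 CPM in SP-Treg, and the lowest adjusted p among these 8 genes was 0.0803 (Il2ra, edgeR's quasi-likelihood test). Some libraries went against their labels or held transcripts of other cells. Of the BM-Treg libraries labelled female, replicates 1 and 2 held Y-linked transcripts at 154 and 63.3 CPM in all beside Xist at 1230 and 2267 CPM, while replicate 3 had 2.01 CPM of Y-linked transcripts. The B cell markers summed to 113 CPM in SP-Treg replicate 2, against 8.33 to 24.5 CPM in the other SP-Treg libraries and 11.7 to 15.95 CPM in BM-Treg. Erythroid markers ranged from 1.76 to 453 CPM in SP-Treg and from 12.6 to 32.4 CPM in BM-Treg, and plasma cell markers reached 26.3 CPM in SP-Treg replicate 2 and at most 1.11 CPM in BM-Treg. Neutrophil markers stayed under 16.9 CPM in all 8 libraries, and markers of monocytes and macrophages ranged from 21.4 to 52.8 CPM. Those of plasmacytoid dendritic cells ranged from 37.3 to 67.3 CPM, nearly all of it from Ccr9 (mean 34.8 CPM in the marrow and 26.1 CPM in the spleen, not called) and Pacsin1 (20.1 and 29.5 CPM, called lower in BM-Treg), while Siglech, Klk1 and Cox6a2 stayed under 1 CPM.

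Btla and Tigit were lower in BM-Treg than in SP-Treg, and no receptor of the set was higher. In edgeR's quasi-likelihood test 2 of the 10 genes passed an adjusted p of 0.05, both lower in BM-Treg, against a background of 8.75% of the 13397 genes tested in either direction and 5.02% lower in BM-Treg. These were also the 2 receptors for which every BM-Treg library lay below every SP-Treg library, an arrangement found for 8.55% of all genes tested. Of the other 8 receptors, Lag3 and Havcr2 had an unadjusted p under 0.05 that did not survive the adjustment. DESeq2 and limma-voom also called Btla and Tigit and no other receptor. Both receptors with a positive fold change, Cd226 and Lair1, had unadjusted p of 0.307 and 0.247. The median log2 fold change (BM-Treg minus SP-Treg) was −0.22 over the 10 genes and −0.012 over all genes tested. In bulk RNA, fewer cells that carry a transcript and less transcript per cell cannot be told apart. For TIGIT protein, the paper that reported these data found a larger share of positive Treg in marrow than in spleen. That was measured by flow cytometry in naïve mice, and its direction is opposite to that of the Tigit transcript. How the transcript and the protein relate was not tested.

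**Figure D1:**
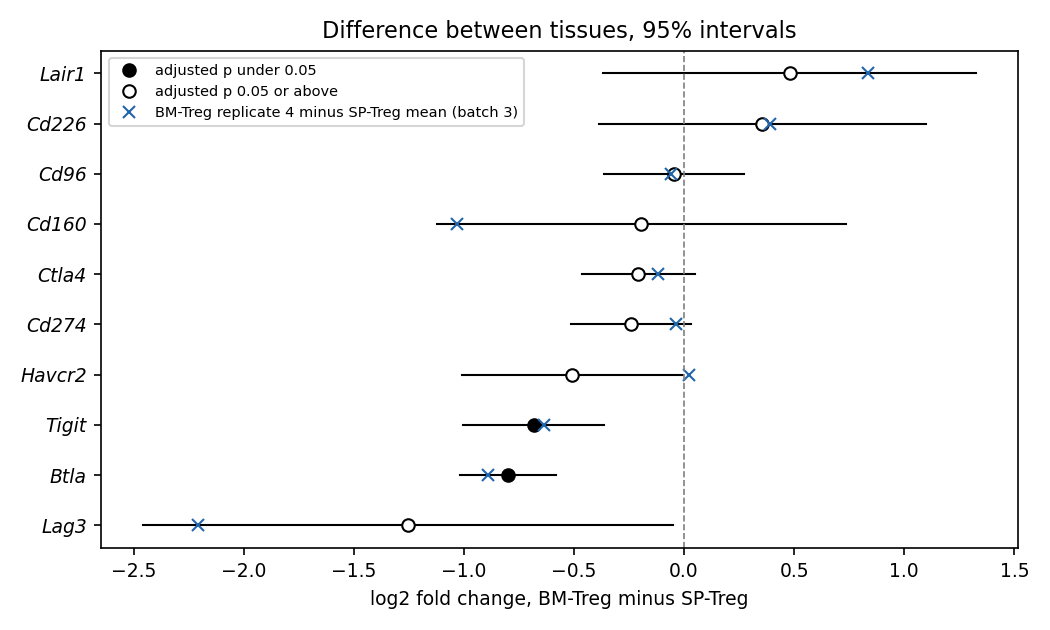
Log2 fold change of each receptor gene between BM-Treg and SP-Treg (4 libraries each), with 95% intervals from edgeR's quasi-likelihood fit. Filled circles passed an adjusted p of 0.05, and crosses give the BM-Treg library of batch 3 against the mean of the SP-Treg libraries of the same batch, which has no test. Btla and Tigit lie below 0 with intervals and crosses on the same side, while the cross of Havcr2 lies at 0.02.

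Btla showed the firmest difference of the set. BTLA is an immunoglobulin superfamily receptor that recruits tyrosine phosphatases when it engages HVEM, and its gene lies on the plus strand at chr16:45224315-45252895 (GRCm38 coordinates of the deposited tables). Its normalised level was 93.4, 99.2, 78.5 and 82.9 CPM in BM-Treg replicates 1 to 4 and 144, 148, 165 and 159 CPM in SP-Treg replicates 1 to 4. No BM-Treg library came near the lowest SP-Treg library, and the spread within each tissue was small. The means were 88.5 ± 9.49 (SD, n = 4) and 154 ± 9.56 CPM (SD, n = 4), 1.74-fold higher in SP-Treg. The log2 fold change was −0.80 with a standard error of 0.10 (95% interval −1.02 to −0.58, adjusted p = 0.00059 in edgeR's quasi-likelihood test). Btla remained below the threshold in every alternative whose tissue difference rests on more than 1 marrow library. Adjusted p in these ran from 8.22e-11 (DESeq2 Wald test) to 0.00895 (limma on log2(FPKM + 0.1)). With batch as a term the tissue difference rests on BM-Treg replicate 4 alone, and it was −0.89. The difference within batch 3 alone, −0.89, compares the same BM-Treg replicate 4 with the spleen and is not a separate check. B cells also express Btla, and 1 of the 5 tested B cell markers, Ebf1, was lower in BM-Treg, at 0.417 to 1.39 CPM in the marrow and 1.44 to 11.1 CPM in the spleen (log2 fold change −2.42, edgeR adjusted p = 0.0332). The part of B cells in the Btla difference was not tested. Without SP-Treg replicate 2, which had the highest B cell markers, the difference was −0.82 (edgeR adjusted p = 0.00166). SP-Treg replicates 1, 3 and 4, which that fit keeps, held 8.33, 24.5 and 19.5 CPM of these markers, against 11.7 to 15.95 CPM in BM-Treg.

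Tigit was the most abundant receptor transcript of the spleen beside Ctla4, and it was lower in the marrow. TIGIT carries inhibitory motifs in its tail and marks Treg with strong suppressive activity, and its gene lies on the minus strand at chr16:43648861-43664184. The level was 252, 336, 443 and 357 CPM in BM-Treg replicates 1 to 4 and 606, 594, 555 and 472 CPM in SP-Treg replicates 1 to 4. The highest BM-Treg library, replicate 3, lay just under the lowest SP-Treg library, replicate 4. The means were 347 ± 78.4 (SD, n = 4) and 557 ± 60.4 CPM (SD, n = 4), 1.60-fold higher in SP-Treg, and the log2 fold change was −0.68 with a standard error of 0.15 (95% interval −1.002 to −0.36, edgeR adjusted p = 0.0121). The call held without each library in turn, with adjusted p from 0.00471 to 0.0463. It was lost in limma on log2(FPKM + 1) (−0.64, adjusted p = 0.0526). The call was also lost with batch as a term (−0.64), a fit whose tissue difference rests on BM-Treg replicate 4 alone. The difference within batch 3 alone, −0.64, makes the same comparison of BM-Treg replicate 4 with the spleen.

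Lag3 had the largest fold change of the 10 genes and the widest spread in BM-Treg. LAG-3 resembles CD4 in structure, and the gene lies on the minus strand at chr6:124904361-124911705, close to Cd4. Its level was 10.6, 21.9, 50.2 and 11.9 CPM in BM-Treg replicates 1 to 4 and 60.0, 66.1, 52.9 and 48.8 CPM in SP-Treg replicates 1 to 4. In BM-Treg, 3 libraries were far below the spleen, and replicate 3 fell within the range of SP-Treg. The means were 23.6 ± 18.4 (SD, n = 4) and 57.0 ± 7.64 CPM (SD, n = 4), 2.41-fold higher in SP-Treg. The log2 fold change of −1.25 (standard error 0.51, 95% interval −2.46 to −0.050) did not pass the threshold (unadjusted p = 0.0433, edgeR adjusted p = 0.197). BM-Treg replicate 3 decided this call. Without it the log2 fold change was −1.93 with an edgeR adjusted p of 0.00176, while without any other single library the adjusted p lay between 0.269 and 0.356. Within batch 3 alone the difference was −2.21. The paper that reported these data lists Lag3 among the genes downregulated in BM-Treg, the same direction. Its heatmap legend gives 3 replicates per tissue and does not say which libraries these were. BM-Treg replicate 3 also had the highest Tigit and Ctla4 of the BM-Treg libraries and the lowest Btla.

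Havcr2 varied in both tissues. TIM-3 is an inhibitory receptor of terminally differentiated T cells and of effector Treg, and the gene lies at chr11:46454935-46481255. The level was 19.5, 19.6, 21.1 and 31.8 CPM in BM-Treg replicates 1 to 4 and 45.7, 34.2, 21.2 and 28.8 CPM in SP-Treg replicates 1 to 4. The tissues overlapped because BM-Treg replicate 4 was higher than SP-Treg replicates 3 and 4. The log2 fold change was −0.51 with a standard error of 0.23 (95% interval −1.01 to −0.0064, edgeR adjusted p = 0.209). It was −0.03 with batch as a term and 0.02 within batch 3 alone. In both, the difference rests on BM-Treg replicate 4 as the only library of the marrow.

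**Figure D2:**
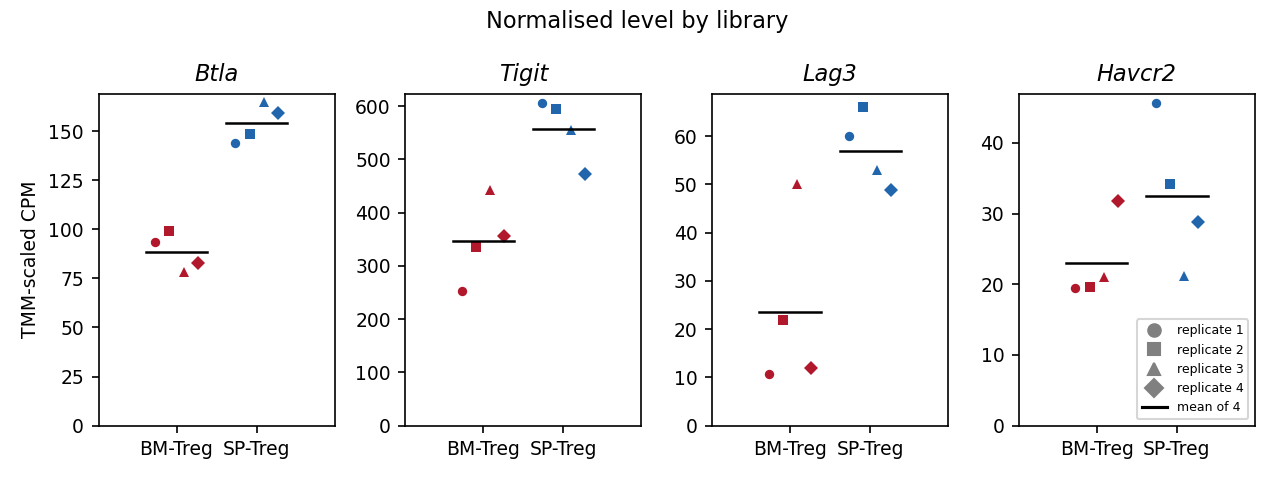
Normalised level (CPM with TMM scaling, axis from 0) of Btla, Tigit, Lag3 and Havcr2 in each BM-Treg (red) and SP-Treg (blue) library, with the mean of 4 libraries as a line. The tissues are separate for Btla and Tigit, BM-Treg replicate 3 reaches 50.2 CPM for Lag3, and BM-Treg replicate 4 reaches 31.8 CPM for Havcr2.

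Ctla4 was abundant in both tissues and did not pass the test. The gene lies at chr1:60887000-60915832 on the plus strand, beside Icos and Cd28. Its level was 911, 879, 1090 and 1033 CPM in BM-Treg replicates 1 to 4 and 1049, 978, 1322 and 1169 CPM in SP-Treg replicates 1 to 4. The BM-Treg mean of 978 ± 99.7 (SD, n = 4) lay below the SP-Treg mean of 1129.8 ± 151 CPM (SD, n = 4), and BM-Treg replicates 3 and 4 fell within the range of SP-Treg. The log2 fold change was −0.21 with a 95% interval of −0.46 to 0.048 (edgeR adjusted p = 0.322). A pseudogene, Rpl18-ps1, lies within the span of Ctla4 on the same strand with a mean of 309 counts, against 12276 to 24896 counts for Ctla4.

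Cd96 and Cd226, which share the ligand CD155 with Tigit, were not called. Cd96 (chr16:46035657-46120251) stood at 98.9, 91.6, 103 and 93.9 CPM in BM-Treg and at 66.2, 108, 111 and 115 CPM in SP-Treg. All libraries but SP-Treg replicate 1 lay close together, and the log2 fold change of −0.046 (95% interval −0.36 to 0.27, edgeR adjusted p = 0.888) changed sign on the FPKM scale, to 0.052. Cd226, the activating counterpart, stood at 29.5, 19.3, 14.0 and 19.7 CPM in BM-Treg and at 7.90, 16.8, 25.1 and 14.7 CPM in SP-Treg. Its highest and lowest libraries were BM-Treg replicate 1 and SP-Treg replicate 1, and the tissues overlapped in between. The log2 fold change was 0.36 (95% interval −0.38 to 1.10, edgeR adjusted p = 0.573).

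Cd160, Cd274 and Lair1 were not called either. Cd160, whose product can be anchored to the membrane by a lipid, lies at chr3:96798763-96829351 and stood at 15.3, 6.85, 5.95 and 4.01 CPM in BM-Treg and at 5.39, 7.17, 11.04 and 13.4 CPM in SP-Treg. Its spread within each tissue was as wide as that between them (log2 fold change −0.19, 95% interval −1.12 to 0.74, edgeR adjusted p = 0.827), and its sign changed to 0.017 without BM-Treg replicate 4 and to 0.040 without SP-Treg replicate 4. Cd274 (chr19:29367455-29388095) stood at 109, 108, 115 and 132 CPM in BM-Treg and at 105, 133, 161 and 150.3 CPM in SP-Treg. SP-Treg replicate 1 was the lowest of the 8 libraries for this gene, so that the tissues overlapped (log2 fold change −0.24, 95% interval −0.51 to 0.031, edgeR adjusted p = 0.274). Lair1 (chr7:4007073-4063204) was the weakest of the set, with 12 to 69 expected counts per library. It stood at 2.06 to 3.92 CPM in BM-Treg and at 0.862 to 3.18 CPM in SP-Treg, and a difference was not detectable at this depth (log2 fold change 0.48, 95% interval −0.37 to 1.33, edgeR adjusted p = 0.512).

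Markers of natural killer cells, which express Cd96, Cd226, Cd160 and Tigit, were near 0 in both tissues. Ncr1 had no count in BM-Treg or in SP-Treg replicate 1 and at most 1.04 CPM in the others, and the 7 markers summed to between 3.18 and 4.21 CPM in BM-Treg and between 3.66 and 13.0 CPM in SP-Treg. Of these 7 genes 1 was called, Gzma, which was lower in BM-Treg. Cd8a was also lower in BM-Treg, with a summed level of the 2 CD8 genes of 10.8 to 12.6 CPM in BM-Treg and of 13.2 to 41.0 CPM in SP-Treg. The part of these cells in the levels of the receptors, and in the differences of Btla and Tigit, was not tested. Without SP-Treg replicate 2, which had the highest levels of both lists, the differences were −0.82 and −0.65 on the log2 scale. That fit keeps SP-Treg replicates 1, 3 and 4, whose natural killer markers summed to 3.66, 7.94 and 8.00 CPM. Their CD8 genes summed to 13.2, 22.7 and 16.6 CPM, so it does not remove these transcripts.

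Levels of different genes were compared on the FPKM scale, in which counts are divided by transcript length and library depth. In SP-Treg the order was Tigit with a mean of 616 ± 93.7 (SD, n = 4), Ctla4 with 597 ± 69.7, Btla with 47.5 ± 2.16, Cd96 with 45.9 ± 8.29, Cd274 with 37.5 ± 4.74, Lag3 with 29.0 ± 4.69, Havcr2 with 12.5 ± 4.96, Cd226 with 8.75 ± 3.86, Cd160 with 3.85 ± 1.30 and Lair1 with 0.938 ± 0.324 FPKM. The lowest SP-Treg library of these, 499.7 FPKM for Ctla4, stood far above the highest of Btla, 49.0 FPKM. The libraries of neighbours in this order overlapped except between Ctla4 and Btla, between Lag3 and Havcr2 and between Cd160 and Lair1. In BM-Treg the order was Ctla4 with 545 ± 50.3 (SD, n = 4), Tigit with 400.1 ± 92.0, Cd96 with 47.1 ± 3.55, Cd274 with 33.5 ± 1.83, Btla with 28.7 ± 3.78, Cd226 with 12.8 ± 3.98, Lag3 with 12.7 ± 10.05, Havcr2 with 9.08 ± 2.03, Cd160 with 3.44 ± 2.22 and Lair1 with 1.38 ± 0.401 FPKM. Here the ranges of neighbours were separate between Tigit and Cd96, between Cd96 and Cd274, between Btla and Cd226 and between Havcr2 and Cd160. Thus Btla was the third gene of the order in the spleen and the fifth in the marrow, and Lag3 was the sixth and the seventh. By rank among all 38215 genes, Tigit was gene 66 in SP-Treg and 140 in BM-Treg, and Ctla4 was gene 72 and 97.

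**Figure D3:**
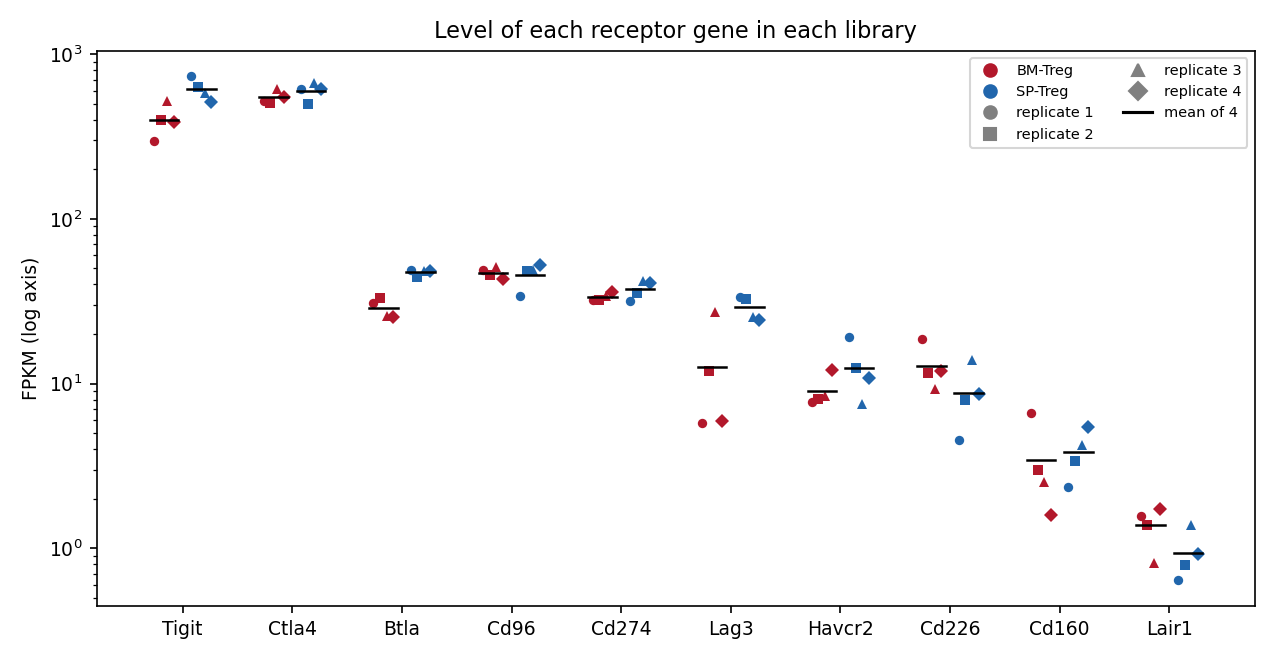
FPKM of each receptor gene (log axis) in each BM-Treg (red) and SP-Treg (blue) library, ordered by the SP-Treg mean, with the mean of 4 libraries as a line. Tigit and Ctla4 lie between 295 and 736 FPKM in every library, while Lair1 does not exceed 1.74 FPKM.

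Ratios within a library were taken between the most abundant receptors and between receptors that share a ligand. Tigit over Ctla4, which bind different ligands, in FPKM was 0.571, 0.791, 0.844 and 0.711 in BM-Treg replicates 1 to 4 and 1.203, 1.27, 0.873 and 0.839 in SP-Treg replicates 1 to 4. Ctla4 thus exceeded Tigit in every BM-Treg library, while SP-Treg libraries lay on both sides of 1. Tigit over Cd226, an inhibitory receptor against its activating competitor, was 15.9, 34.3, 55.7 and 32.6 in BM-Treg and 162, 79.6, 41.8 and 59.6 in SP-Treg. The range was wide in the spleen, and BM-Treg replicate 3 lay above SP-Treg replicate 3. Ctla4 over Cd28 was 5.36, 5.19, 6.18 and 5.66 in BM-Treg and 4.02, 4.10, 6.28 and 5.90 in SP-Treg, with full overlap.

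The deposited transcript tables list 26 transcripts of the 10 genes, of which 11 could be tested for a change in their use within the gene. None was called in edgeR's diffSpliceDGE, where 0.198% of 21671 transcripts passed an adjusted p of 0.05, and the lowest unadjusted p among the 11 was 0.125. That transcript was Ctla4-202, described here after its values had been seen because it differs from the main form in a way that bears on the protein. Ctla4-201 took over 99.2% of the counts of the gene in each library. Ctla4-202 lacks exon 3 of Ctla4-201, at chr1:60913219-60913328 (GENCODE M21, GRCm38, plus strand), which encodes the stretch that anchors CTLA-4 in the membrane, so that the product of such a transcript is soluble. The skipped exon and the exon junctions that tell the transcripts apart are shown 5′ to 3′. In the junctions, capitals mark the first 20 bases of the downstream exon.
Skipped exon 3, all of its 110 bases: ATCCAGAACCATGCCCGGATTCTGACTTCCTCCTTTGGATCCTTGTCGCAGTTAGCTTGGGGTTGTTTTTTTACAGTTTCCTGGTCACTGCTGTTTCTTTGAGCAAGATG
Ctla4-201, exon 2 to exon 3: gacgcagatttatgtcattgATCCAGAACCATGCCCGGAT
Ctla4-201, exon 3 to exon 4: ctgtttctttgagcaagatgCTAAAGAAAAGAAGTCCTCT
Ctla4-202, exon 2 to its last exon: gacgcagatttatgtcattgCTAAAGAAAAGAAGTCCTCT

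The expected counts assigned to Ctla4-202 were 79.2, 56.5, 63.4 and 62.6 in BM-Treg replicates 1 to 4 and 18.6, 3.75, 36.0 and 42.0 in SP-Treg replicates 1 to 4. As a share of the counts of the gene this was 0.476%, 0.298%, 0.254% and 0.506% in BM-Treg and 0.127%, 0.0305%, 0.227% and 0.264% in SP-Treg. The lowest BM-Treg share, that of replicate 3, lay below the highest SP-Treg share, that of replicate 4. The means were 0.384% ± 0.126 (SD, n = 4) and 0.162% ± 0.105 (SD, n = 4), and the usage of Ctla4-202 relative to the other transcripts had a log2 difference of 1.15 that was not called (unadjusted p = 0.125, edgeR adjusted p = 0.99996). The depth of this measurement is under 80 counts per library, and the assignment of reads among overlapping transcripts adds an error that the tables do not give.

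For the other receptors with several transcripts the shares varied as much within a tissue as between them. Lag3-201, Tigit-201, Cd96-201 and Cd274-201 took 100% of the counts of their genes. Havcr2-202 took 13.9% to 56.2% in BM-Treg and 12.4% to 47.5% in SP-Treg. Cd226-202, of 1239 bases against 2487 in Cd226-201, took 17.4% to 26.7% in BM-Treg and 8.16% to 22.2% in SP-Treg. Cd160-203, of 2458 bases against 2590 in Cd160-202, took 53.2% to 86.4% in BM-Treg and from 0% to 71.1% in SP-Treg, from at most 242 counts. Btla-202 took 34.2%, 40.2%, 99.998% and 44.2% in BM-Treg and 31.4%, 23.3%, 29.2% and 54.9% in SP-Treg. Btla-201 and Btla-202 are 1598 and 3251 bases long. In BM-Treg replicate 3 nearly all counts were assigned to Btla-202, while the level of the gene in that library did not stand apart. The transcripts of Lair1 rested on too few counts to be compared.

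**Figure D4:**
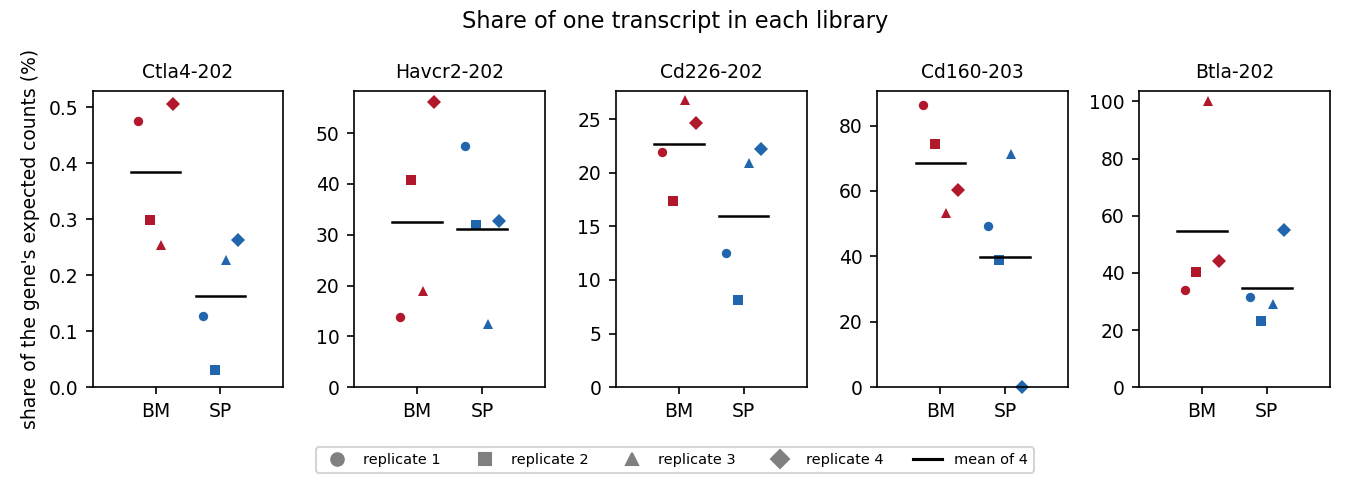
Share of the expected counts of the gene (percent, axes from 0 with a scale for each panel) assigned to 1 transcript of Ctla4, Havcr2, Cd226, Cd160 and Btla in each BM-Treg (red) and SP-Treg (blue) library. Ctla4-202 reaches at most 0.506%, and Btla-202 reaches 99.998% in BM-Treg replicate 3.

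Of the 81 entries in 6 lists of genes around the receptors, 71 were tested, of which 13 were lower and 6 higher in BM-Treg at an adjusted p of 0.05. Over all genes tested, 5.02% were lower and 3.72% higher, 8.75% in all, the background for each list that follows. The lists had median log2 fold changes between −0.29 and 0.12, against −0.012 over all genes. All 19 calls kept their direction in every alternative that gave a test. Leaving out each library in turn kept 11 of them. With batch as a term, where the tissue difference rests on BM-Treg replicate 4 alone, most of the 19 calls were lost. In both limma fits on FPKM, 9 of the 19 did not pass (Nectin1, Tnfsf14, Cd28, Icos, Slamf1, Slamf6, Cd200, Lrba and Batf).

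**Figure D5:**
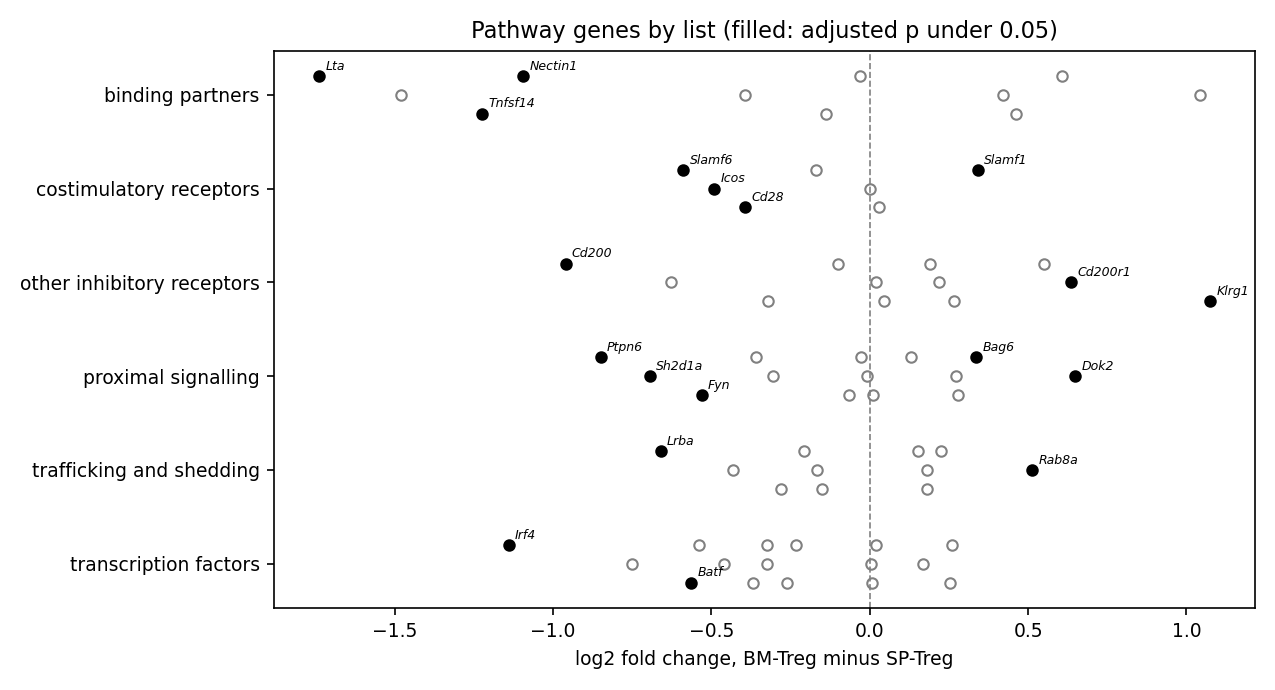
Log2 fold change between BM-Treg and SP-Treg of the 71 tested genes in 6 lists around the checkpoint receptors (rows). Filled points passed an adjusted p of 0.05 in edgeR and are named, with 13 to the left of 0 and 6 to the right. Vertical offsets within a row only separate points.

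Among the 14 binding partners, 11 were tested, 3 fell in BM-Treg and none passed the test in the other direction, in which 4 (Cd80, Pvr, Lgals9 and Lgals3) had an unadjusted p under 0.05. Lta, which encodes lymphotoxin alpha, a ligand that can bind HVEM, was 3.73 ± 0.522 CPM in the marrow against 12.5 ± 6.24 CPM in the spleen (means ± SD of 4 libraries), a log2 fold change of −1.74 (edgeR adjusted p = 0.00343). Tnfsf14, which encodes LIGHT, the other ligand of HVEM in this family, fell by 1.22 on the log2 scale (edgeR adjusted p = 0.0492), and Nectin1, an adhesion receptor that binds CD96, fell by 1.09 (edgeR adjusted p = 0.0273). Both were low, at 1.54 and 3.06 CPM in BM-Treg. The call of Tnfsf14 was lost whichever library was left out (edgeR adjusted p up to 0.163, without SP-Treg replicate 1). That of Nectin1 passed in 3 of these 8 fits (edgeR adjusted p up to 0.0965, without SP-Treg replicate 2). Of the ligands that Treg themselves transcribed, chosen here after their values had been seen, Pvr stood at 68.6 CPM in the marrow and 45.0 CPM in the spleen (log2 fold change 0.61, edgeR adjusted p = 0.193), and Tnfrsf14 at 5.75 and 6.37 CPM (−0.14, edgeR adjusted p = 0.798). Lgals9, which encodes galectin-9, was at 132 and 98.4 CPM with no overlap between tissues (0.42, edgeR adjusted p = 0.0635).

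Of 9 costimulatory receptors 7 were tested, with 3 lower and 1 higher in BM-Treg. Icos, a costimulatory receptor of activated T cells and effector Treg, fell from 1531 ± 318 CPM in the spleen to 1090 ± 111 CPM in the marrow (means ± SD of 4 libraries), a log2 fold change of −0.49 (edgeR adjusted p = 0.0439). Cd28 fell by 0.39 on the log2 scale (edgeR adjusted p = 0.0355), and Slamf6, a self-binding receptor of the SLAM family, by 0.59 (edgeR adjusted p = 0.0183). Slamf1 of the same family rose by 0.34 (edgeR adjusted p = 0.0437). None of the 4 calls held in every fit with a library left out, while the fold changes kept their direction. On the log2 scale these ranged from −0.59 to −0.33 (Icos), −0.46 to −0.30 (Cd28), −0.66 to −0.48 (Slamf6) and 0.31 to 0.41 (Slamf1). Of the 8 fits with a library left out, Icos and Cd28 passed in 2 each, Slamf1 in 1 and Slamf6 in 6. The edgeR adjusted p reached 0.144 for Icos (without SP-Treg replicate 1). Without BM-Treg replicate 2 it reached 0.109, 0.0671 and 0.137 for Cd28, Slamf6 and Slamf1. Icos and Cd28 lie 62095 and 113641 bases from Ctla4 and were 2 of its 8 tested neighbours within 500 kb, of which no other was called.

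Of 16 other inhibitory receptors and their ligands 12 were tested, with 2 higher and 1 lower in BM-Treg. Klrg1, a lectin-like inhibitory receptor of terminally differentiated T cells and Treg, rose from 111 ± 3.98 CPM in the spleen to 234 ± 62.4 CPM in the marrow (means ± SD of 4 libraries), a log2 fold change of 1.07 (edgeR adjusted p = 0.00105). Cd200r1 rose by 0.64 on the log2 scale (edgeR adjusted p = 0.0119), while Cd200, which encodes its ligand, fell by 0.96 (edgeR adjusted p = 0.000909). In limma on log2(FPKM + 1) the difference of Cd200 was −0.53 (adjusted p = 0.0761). Cd200 and Cd200r1 lie within 500 kb of Btla and were the only called genes among its 11 tested neighbours, 1 in each direction. The stretch of chromosome 16 from Tigit to the end of Cd96 spans 2.47 Mb and holds Btla between them, and the lowest adjusted p was 0.199 among the 10 tested neighbours of Tigit and 0.432 among the 6 of Cd96 (edgeR).

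The proximal signalling list held 14 genes, all tested, with 3 lower and 2 higher in BM-Treg. Ptpn6 encodes SHP-1, a tyrosine phosphatase recruited by BTLA and other receptors of this kind, and fell from 70.8 ± 9.61 CPM in the spleen to 39.3 ± 3.08 CPM in the marrow (means ± SD of 4 libraries), a log2 fold change of −0.85 (edgeR adjusted p = 0.00105). Ptpn6 lies 165647 bases from Lag3. Sh2d1a, the adaptor SAP of SLAM family receptors, fell by 0.69 on the log2 scale (edgeR adjusted p = 0.00252), and the kinase gene Fyn by 0.53 (edgeR adjusted p = 0.00607). Dok2, an adaptor that restrains antigen receptor signalling, rose by 0.65 (edgeR adjusted p = 0.00299). Bag6, which encodes a chaperone that binds the tail of TIM-3, rose by 0.34 (edgeR adjusted p = 0.0337, up to 0.105 without BM-Treg replicate 2). Bag6 passed in 2 of the 8 fits with a library left out. The phosphatase gene Ptpn11, which encodes SHP-2, stood at 63.6 and 81.6 CPM (−0.36, edgeR adjusted p = 0.107) and was chosen after its values had been seen.

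Of 11 genes for trafficking and shedding, all tested, Lrba fell and Rab8a rose. LRBA protects CTLA-4 from degradation in lysosomes, and Lrba was 360.3 ± 23.9 CPM in the marrow against 569 ± 106 CPM in the spleen (means ± SD of 4 libraries), a log2 fold change of −0.66 (edgeR adjusted p = 0.00456). Rab8a, a small GTPase of transport to the cell surface, stood at 127 ± 2.15 CPM in the marrow against 89.3 ± 7.69 CPM in the spleen, a log2 fold change of 0.51 (edgeR adjusted p = 0.00401). Of 17 transcription factors linked to these receptors, 16 were tested and 2 fell in BM-Treg. Irf4, a factor of effector Treg differentiation, fell from 300.2 ± 62.2 CPM in the spleen to 136 ± 12.1 CPM in the marrow (means ± SD of 4 libraries), a log2 fold change of −1.14 (edgeR adjusted p = 0.000392). Batf, its AP-1 partner, fell by 0.56 (edgeR adjusted p = 0.0483, up to 0.131 without SP-Treg replicate 1). Batf passed in 2 of the 8 fits with a library left out.

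Genes whose level was most like that of the called receptors were read from log2 CPM over the 8 libraries, among 11520 genes. For Tigit these were P4hb, Ddx19a and Plxnb2, with Pearson's r of 0.99, 0.99 and 0.97, and the values after each tissue's mean was removed were 0.97, 0.96 and 0.91. For Btla they were Gprin3, Col27a1 and Rcan3, with r of 0.99, 0.98 and 0.98, and 0.83, 0.69 and 0.70 after each tissue's mean was removed. The split of the 8 libraries into 2 tissues enters each r, and 116 genes exceeded an r of 0.9 for Tigit and 159 for Btla. The genes named were picked for the highest r over these same libraries, so the values are a description only. P4hb, which encodes protein disulfide isomerase, was 65.5, 77.7, 88.8 and 76.4 CPM in BM-Treg replicates 1 to 4 and 118, 111, 109 and 97.9 CPM in SP-Treg replicates 1 to 4. The order of libraries was close to that of Tigit in both tissues, a likeness for which P4hb was picked.

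The sequences just before the starts of Tigit and Btla are shown because these receptors were called. They are the 250 bases upstream of the RefSeq start (GRCm38.p6), 5′ to 3′ on the strand of the gene. They come from chr16:43664185-43664434 for Tigit and chr16:45224087-45224336 for Btla. The last bases of the Btla window lie within the span of the gene given above. Capitals mark matches to 1 of 4 short motifs on either strand, which are AP-1 (TGANTCA), NFAT (GGAAA), forkhead (GTAAACA) and IRF (GAAA, 2 free bases, GAAA).
Tigit: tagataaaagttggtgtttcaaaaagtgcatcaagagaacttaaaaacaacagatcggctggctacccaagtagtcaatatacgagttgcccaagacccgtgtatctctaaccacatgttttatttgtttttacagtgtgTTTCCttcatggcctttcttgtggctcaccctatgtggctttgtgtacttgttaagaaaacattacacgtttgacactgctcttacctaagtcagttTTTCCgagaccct
Btla: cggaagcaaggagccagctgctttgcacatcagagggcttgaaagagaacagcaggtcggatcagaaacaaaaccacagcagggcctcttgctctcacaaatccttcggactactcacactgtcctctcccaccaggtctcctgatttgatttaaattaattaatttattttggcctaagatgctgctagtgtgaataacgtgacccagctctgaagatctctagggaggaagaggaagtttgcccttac

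The window of Tigit held 2 NFAT matches, starting 110 and 13 bases before the start, and that of Btla held no match to any of the 4 motifs. An NFAT match occurred in 55.6% of 32851 RefSeq promoter windows of this length. The other motifs were rarer, in 6.75% (AP-1), 2.98% (IRF) and 3.17% (forkhead) of the windows. For the receptors, windows on chromosome 18, where Cd226 lies, were left out of the count by choice. The 9 windows used stand for 8 of the 10 genes, all but Lag3 and Cd226, with Cd160 counted 2 times. Of these windows 6 held an NFAT match and 1, that of Havcr2, an AP-1 match. These are matches of letters in a short window and do not show binding.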

How the data were processed

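Sorted FoxP3+ cells gave RNA that was amplified with NuGEN kits (SPIA) and read from 1 end over 80 bases. The submitters' processing notes name cutadapt 1.9, STAR 2.5.2a, RSEM 1.2.30 and the build GRCm38. The authors deposited expected counts (fractional RSEM estimates for genes and for transcripts, not normalised between libraries) and FPKM values (those counts divided by effective transcript length and by depth, per the file headers and values). All 8 libraries were used, and 0 columns of single libraries were left unmatched. Expected counts were rounded to whole numbers and tested with edgeR 4.0.16 (R 4.3.3) by the quasi-likelihood test with robust estimation, its default filter on the tissues, TMM scaling and Benjamini-Hochberg adjustment over the 13397 genes tested, at a threshold of 0.05. Standard errors were taken as the log2 fold change divided by the square root of the F statistic, with 95% intervals on the degrees of freedom of the fit. CPM values use TMM library sizes, and log2 CPM uses a prior count of 2. Use of transcripts was tested with diffSpliceDGE of edgeR over all transcripts. Alternatives used DESeq2 1.42.0 and limma 3.58.1, among other settings. The test procedures were tested on simulated data.

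The 10 genes and the lists around them were chosen with earlier results of these data known, and no p was adjusted over a list alone. Named genes are the 10 receptors, the called genes of each list (at most 4 in each direction by adjusted p), the 3 genes (mean log2 CPM 1 or more) most correlated with each called receptor, and transcripts with a mean share of at least 5% in either tissue. Exceptions are stated where they occur. Of 140 list entries 139 were found in the tables. The cDNA had no molecular identifiers, so that the errors given rest on how far the libraries spread. Kits of this kind are not stated to keep strand, and reads of overlapping genes cannot be told apart. One result on a single marker gene is not reported here.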

Additional observations from a re-analysis of the deposited data

Results flagged for a closer look

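Dixon's test at the 95% level was applied to the 4 libraries of each tissue for the named genes and transcripts, 96 groups in all, of which chance flags about 1 in 20. For the receptors it marked Havcr2 in BM-Treg replicate 4, at 31.8 CPM against 19.5 to 21.1 CPM in the other BM-Treg libraries, and Cd96 in SP-Treg replicate 1, at 66.2 CPM against 108 to 115 CPM in the other SP-Treg libraries. BM-Treg replicate 4 is the only marrow library of batch 3, and the part of the batch in this value was not tested. SP-Treg replicate 1 also stood apart for Tnfsf14, at 5.17 CPM against 2.93 to 3.27 CPM, and for Lrba, at 727 CPM against 503 to 532 CPM. Icos in BM-Treg replicate 1 was 926 CPM against 1129 to 1168 CPM, and Slamf1 in SP-Treg replicate 3 was 106 CPM against 86.9 to 89.9 CPM.

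In BM-Treg replicate 3, 0.00167% of the Btla counts were assigned to Btla-201 and 99.998% to Btla-202, against 55.8% to 65.8% and 34.2% to 44.2% in the other BM-Treg libraries. Lair1-202 took 7.04% of the Lair1 counts in BM-Treg replicate 2 and 0% in the other BM-Treg libraries, from 48 counts on the gene in that library.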

How the results depend on the processing

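Over all genes, 1172 were called, of which 42.6% were higher in BM-Treg. The count was 765 in limma on log2(FPKM + 1) and 728 on log2(FPKM + 0.1), with 63.0% and 62.4% higher, 258 with batch as a term and 427 at an adjusted p of 0.01. It was 1707 in the DESeq2 Wald test, 1326 without the filter, 1231 (51.3% higher) with at least 10 counts in every library, 1218 in limma-voom and 1157 with DESeq2 size factors. It ranged from 690 (without BM-Treg replicate 2) to 1048 with a library left out. Of the receptors 2 were called, 1 (Btla) in both limma fits on FPKM, with batch as a term and at 0.01, and 2 to 3 with a library left out. The signs of Cd96 and Cd160, neither called, reversed to 0.052 and 0.053 (Cd96, on log2(FPKM + 1) and log2(FPKM + 0.1)), to 0.0068 and 0.026 (Cd96, without SP-Treg replicates 3 and 4) and to 0.017 and 0.040 (Cd160, without BM-Treg and SP-Treg replicate 4). With a library left out they ranged from −0.18 to 0.026 and from −0.68 to 0.040. The cause was not tested. No transcript of a receptor was called for its use in any setting.

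With the replicate number as a block, a paired fit, 948 genes and 2 receptors were called, and Btla and Tigit kept adjusted p of 0.00336 and 0.0237 in edgeR. Same-numbered libraries of the tissues had correlations of their deviations between −0.176 and 0.0595, and 2 of 4 matched their own number best. This check cannot decide whether they share animals, since BM-Treg replicate 4 also differs from the other BM-Treg libraries in batch and sex. Within batch 3 the marrow has 1 library, and those differences carry no test. The tissue difference of the fit with batch as a term rests on that library too, so its calls have no replicate in the marrow.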
